A study of Mus musculus with 8 samples.

Results

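Psca and 9 relatives of the Ly6/uPAR family, Ly6d, Ly6e, Ly6k, Ly6g6c, Lypd2, Lypd3, Slurp1, Lynx1 and Plaur, were followed in epithelial cells of the fetal mouse lung. Each of these 10 genes had exactly 1 probe set that the array platform assigns to it alone, so all 10 were measured, out of 19938 genes in the table. The set was chosen by gene family around Psca, which was selected on its measured rise in the knockout arrays. Its difference is therefore given as a description with no test, and nothing is rested on it. The p-values of the other members come from the fit across all genes.

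The knockout animals (labelled Mst1/2 CKO) had lost the Hippo kinases Mst1 and Mst2 in cells with a history of Cre from the Shh gene, a pattern that takes in the epithelial progenitors of the lung, and were set against animals labelled Control. The labels used here do not say whether controls carried Cre or floxed alleles, and give no strain. There were 4 knockout and 4 control arrays, all from lungs at E18.5, and each array is labelled a biological replicate. The cells had been taken from dissociated lungs with magnetic beads against Epcam. Whether each array stands for separate animals is not stated, so the p-values measure the spread between these arrays.

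Values are log2 expression as deposited by the authors. Each difference is knockout minus control with the standard error (SE) of limma's fit, n = 4 arrays per group, and a gene passed the test at an adjusted p under 0.05. Stk4, which encodes Mst1, averaged 9.36 ± 0.10 in knockout and 9.66 ± 0.12 in control arrays (SD, n = 4 each), and the deleted exons were not mapped to its probe set. The Mst2 gene, Stk3, was not analysed here. Epcam averaged 10.07 ± 0.17 in knockout and 10.06 ± 0.15 in control arrays. The mean of 15 epithelial markers lay between 10.90 and 11.02 in knockout and between 10.89 and 11.05 in control arrays. Of the 15, Krt7 (0.69), Krt19 (0.62) and Krt8 (0.27) rose, Elf3 (−0.72), Foxa1 (−0.58) and Cldn3 (−0.49) fell and 9 did not pass. Over all genes 8.60% rose and 10.2% fell. In bulk RNA of this kind, fewer cells of a type and less RNA per cell cannot be told apart.

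Proteins of this family share a small disulfide-rich fold, the Ly6/uPAR or LU domain. Most are held on the outer face of the cell membrane by a glycosylphosphatidylinositol (GPI) anchor, and some, such as Slurp1, are secreted. Several bind nicotinic acetylcholine receptors, Plaur binds the protease urokinase, and Cd59 proteins block the membrane attack complex of complement. Many members are used as surface markers of blood cells or of stratified epithelia.

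Among the 9 members other than Psca 2 rose (Ly6g6c and Plaur), 2 fell (Ly6e and Lynx1) and 5 did not pass. Over all 19938 genes 8.60% rose, 10.2% fell and 18.8% passed in either direction. Among these 9 the groups did not overlap in 3, Ly6e, Ly6g6c and Lynx1, and over all genes in 22.1%. The median difference of the 9 was 0.09, against −0.02 over all genes. Psca, chosen for its rise, is left out of these counts. The members differed in direction among themselves.

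**Figure D1:**
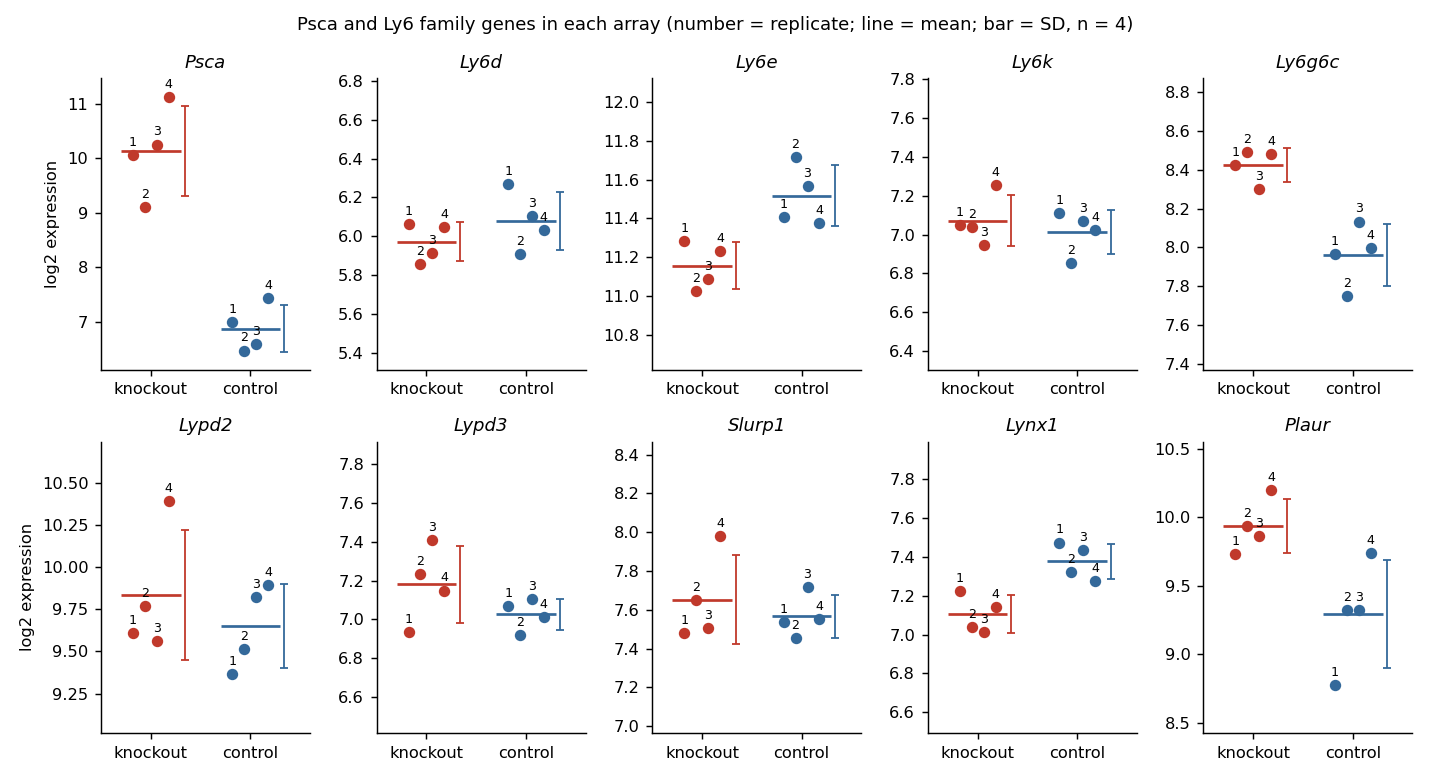
Log2 expression (vertical axes, each with its own range) of the 10 members in the 4 knockout arrays (left, red) and the 4 control arrays (right, blue). Numbers give the replicate, lines the group mean and bars the SD. The knockout points of Psca lie between 9.11 and 11.11 and its control points between 6.47 and 7.43, while the groups overlap in Ly6d, Ly6k, Lypd2, Lypd3 and Slurp1 and touch in Plaur.

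Psca, prostate stem cell antigen, is a GPI-anchored protein found on epithelia such as those of bladder and stomach. It measured 10.06, 9.11, 10.25 and 11.11 in knockout replicates 1 to 4, against 6.99, 6.47, 6.59 and 7.43 in control replicates 1 to 4. Every knockout array was above every control array, replicate 4 was the highest of each group and replicate 2 the lowest. The means were 10.13 ± 0.82 in knockout and 6.87 ± 0.44 in control arrays (SD, n = 4 each), a difference of 3.26 (SE 0.35) or 9.60-fold. The SD was 1.89 times as large in knockout as in control arrays. Leaving out any 1 array gave differences between 2.94 and 3.61.

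The low end of the scale was read against 1027 olfactory receptor genes, most of which should be silent in lung epithelium. Their median level was 4.69 and their 95th percentile 6.48, although background differs from probe set to probe set. The control mean of Psca was above 97.7% of these genes. Whether Psca was at its own background in control cells was not tested, so its fold may be a lower bound. Of the 10 members only Ly6d had a mean over the 8 arrays at or under that 95th percentile.

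Ly6g6c, a family gene of the major histocompatibility complex region, measured 8.42, 8.49, 8.30 and 8.48 in knockout replicates 1 to 4, against 7.97, 7.75, 8.13 and 7.998 in control replicates 1 to 4. All knockout values were above all control values. The difference was 0.46 (SE 0.084, 1.38-fold, adjusted p = 0.00279). It stayed between 0.39 and 0.52 when any 1 array was left out, with adjusted p between 0.00244 and 0.0109. Its knockout arrays lay closer together than those of Psca, within 0.19. Knockout replicate 4, the highest in Psca, was here nearly level with replicate 2, at 8.48 and 8.49.

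Plaur, the urokinase receptor, concentrates the activation of plasminogen at the cell surface and is also present on myeloid cells. It measured 9.73, 9.93, 9.86 and 10.20 in knockout replicates 1 to 4, against 8.77, 9.32, 9.32 and 9.73 in control replicates 1 to 4. The lowest knockout value and the highest control value were nearly equal, and control replicate 1 was low. The difference was 0.64 (SE 0.17, 1.56-fold, adjusted p = 0.0248). The call ended without knockout replicate 2 (0.64, adjusted p = 0.0538), knockout replicate 3 (0.67, adjusted p = 0.0520), knockout replicate 4 (0.55, adjusted p = 0.0521) or control replicate 3 (0.65, adjusted p = 0.0578). It also ended without knockout replicates 1 and 4 together (0.61, adjusted p = 0.0835).

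Ly6e, a GPI-anchored protein that in mice serves as the placental receptor for syncytin-A, fell. It measured 11.28, 11.02, 11.09 and 11.23 in knockout replicates 1 to 4, against 11.41, 11.72, 11.57 and 11.38 in control replicates 1 to 4. All knockout values were below all control values, with a gap of less than the range of either group. The difference was −0.36 (SE 0.089, 1.28-fold, adjusted p = 0.0164), and the call ended without knockout replicate 2 (−0.32, adjusted p = 0.0510), knockout replicate 3 (−0.34, adjusted p = 0.0536) or control replicate 3 (−0.34, adjusted p = 0.0506).

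Lynx1, a GPI-anchored modulator of nicotinic receptors known best from neurons, also fell. It measured 7.23, 7.04, 7.01 and 7.14 in knockout replicates 1 to 4, against 7.47, 7.32, 7.43 and 7.28 in control replicates 1 to 4. The groups did not overlap. The difference was −0.27 (SE 0.070, 1.21-fold, adjusted p = 0.0199). The call ended without knockout replicate 2 (−0.25, adjusted p = 0.0609), knockout replicate 3 (−0.24, adjusted p = 0.0666), control replicate 1 (−0.24, adjusted p = 0.0606) or control replicate 3 (−0.25, adjusted p = 0.0605).

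The other 5 members are Slurp1, Lypd2, Lypd3, Ly6d and Ly6k. Slurp1, a secreted ligand of nicotinic receptors that is needed for normal palm and sole skin in humans, measured 7.48, 7.65, 7.50 and 7.98 in knockout replicates 1 to 4, against 7.54, 7.45, 7.72 and 7.55 in control replicates 1 to 4. The groups overlapped and the difference was 0.09 (SE 0.11, adjusted p = 0.676). Lypd2 measured 9.61, 9.77, 9.56 and 10.39 in knockout replicates 1 to 4, against 9.37, 9.51, 9.82 and 9.89 in control replicates 1 to 4, a difference of 0.18 (SE 0.18, adjusted p = 0.574). Only knockout replicate 4 lay outside the control range in Lypd2. Without that array Slurp1 differed by −0.02, Lypd2 by −0.0025 and Ly6k by −0.0041.

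Lypd3, also called C4.4A and best known from stratified squamous epithelium, measured 6.93, 7.23, 7.41 and 7.15 in knockout replicates 1 to 4, against 7.07, 6.92, 7.10 and 7.01 in control replicates 1 to 4. Replicates 2 to 4 of the knockout were above the controls and replicate 1 was not, and the difference was 0.15 (SE 0.094, adjusted p = 0.323). Ly6d, a marker of keratinocytes and of early B lineage cells, had knockout values from 5.86 to 6.07 and control values from 5.91 to 6.27 (−0.11, SE 0.083, adjusted p = 0.465). Ly6k, known from mouse testis, had knockout values from 6.95 to 7.26 and control values from 6.85 to 7.11 (0.06, SE 0.081, adjusted p = 0.722). Neither gene separated the groups.

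The arrays did not rank alike across members. Knockout replicate 4 was the highest knockout array in 5 of 10 members and the lowest in 0, and control replicate 2 was the lowest control array in 6. In Psca, Lypd2, Slurp1, Ly6k and Plaur the highest knockout array was replicate 4. This array also had the lowest weight, 0.325, when limma weighted the arrays by how far they depart from their group. The differences with those weights were 2.86 for Psca and 0.60 for Plaur. Knockout replicate 4 also had the highest knockout mean of leukocyte (8.99), mesenchymal (8.80), endothelial (9.21) and mesothelial (8.95) markers. Its means of epithelial (10.90), alveolar type 1 (11.86) and alveolar type 2 (10.97) markers were the lowest among knockout arrays. Whether cell content bears on the order of the arrays was not tested.

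Genes whose pattern most resembled that of Psca were ranked by Pearson's r over the 8 arrays among all genes. The highest were Garre1 (r = 0.995), Vegfa, the vascular endothelial growth factor (r = 0.994), Lmna, the A-type lamin (r = 0.993), Sema3f, a secreted semaphorin (r = 0.992), and Adamtsl4 (r = 0.990). All 5 were higher in knockout arrays, by 0.25 to 0.51. Since the groups lie apart, these values are largely set by the group difference. After each array was expressed as its deviation from its group mean, r with Psca was 0.949 for Garre1 and 0.952 for Vegfa. The highest r of deviations were those of Prss35 (0.986), Cyp46a1 (0.984), Vmn1r40 (0.982), Syn1 (0.971) and Elavl3 (0.967), none of which passed the test between groups. Among the other members the r of deviations ran from −0.038 (Lypd3) to 0.556 (Ly6k). These r describe 8 arrays that share their group means and carry no test.

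Position was not used to choose the members, and 7 of the 10 lie in the Ly6 gene cluster of mouse chromosome 15, in the order Psca, Slurp1, Lypd2, Lynx1, Ly6d, Ly6k and Ly6e. From 5 genes before Psca to 5 genes after Gpihbp1 the RefSeq table lists 55 genes, of which 29 were measured. Besides Psca, 1 of them rose, 4 fell and 23 did not pass, beside 8.60% risen and 10.2% fallen over all genes. The neighbour that rose is Them6, a thioesterase superfamily gene next to Psca, named after its value was seen. It measured 7.82, 7.42, 7.89 and 7.95 in knockout replicates 1 to 4, against 7.43, 7.26, 7.23 and 7.47 in control replicates 1 to 4. Knockout replicate 2 lay within the control range and the other knockout arrays above it. The difference was 0.42 (SE 0.11, adjusted p = 0.0229), and the call ended without knockout replicate 1 (adjusted p = 0.0539), knockout replicate 3 (adjusted p = 0.0723), control replicate 2 (adjusted p = 0.0607) or control replicate 3 (adjusted p = 0.0720).

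The genes of this interval that fell were Lynx1, Ly6e, Ly6i and, at its far end, Top1mt, the mitochondrial DNA topoisomerase (−0.34, SE 0.086, adjusted p = 0.0199), also named after its value was seen. The Top1mt call ended without knockout replicate 1 or without control replicate 2, 3 or 4, with adjusted p of 0.0533, 0.0557, 0.0571 and 0.0529. The lowest difference was that of Ly6a2 (−0.44, SE 0.24, adjusted p = 0.252). Apart from Psca the measured genes of the interval lay between −0.44 and 0.42, and its median was −0.05.

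**Figure D2:**
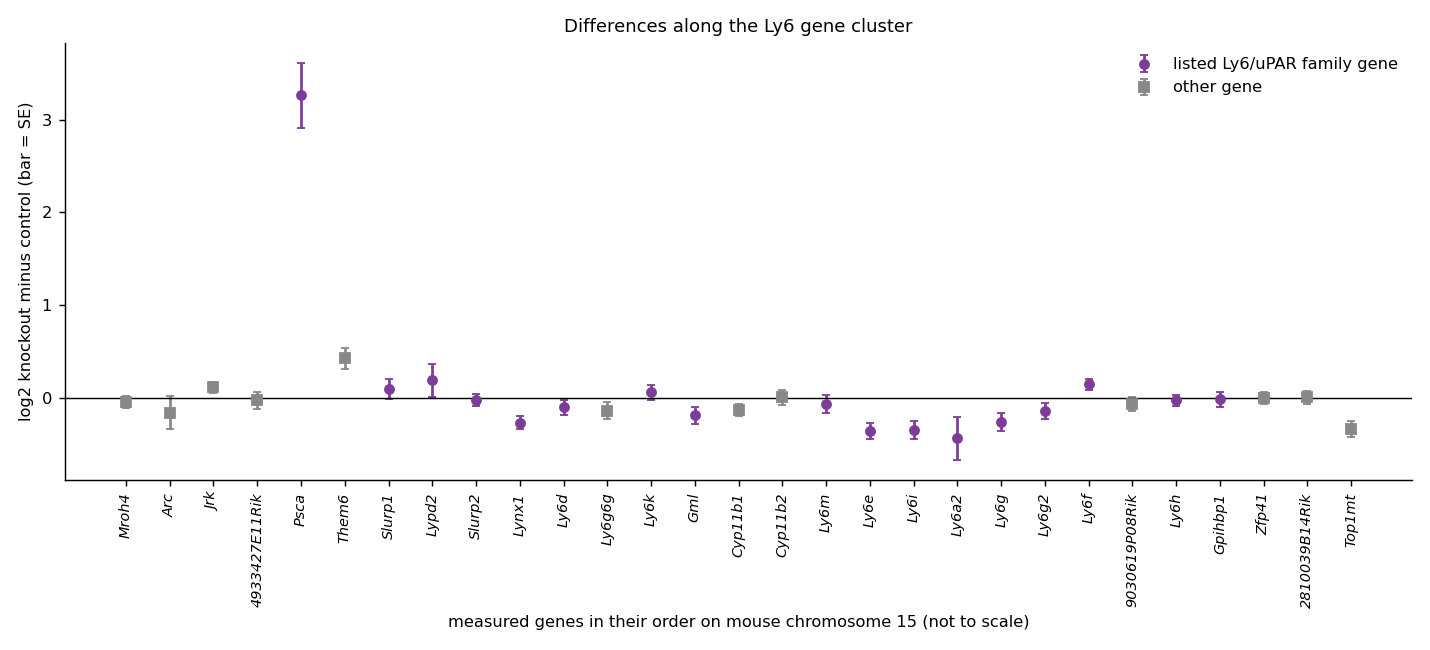
Log2 difference, knockout minus control, with its SE (vertical axis) for the 29 measured genes in their order along the Ly6 cluster of chromosome 15 (horizontal axis, not to scale). Purple circles are listed Ly6/uPAR family genes and grey squares other genes. Psca stands at 3.26 and the other 28 genes between −0.44 and 0.42.

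The rest of the family gave a wider view. Of 37 further Ly6/uPAR genes listed, 30 had a probe set of their own, and of these 0 rose, 5 fell and 25 did not pass in limma's test. That is set beside 8.60% risen and 10.2% fallen over all genes. Of the 30 differences 28 were below 0, also after quantile normalization and after setting the array medians equal, with a median of −0.09. Over all genes 55.0% were below 0 as deposited, 56.9% after quantile normalization and 58.0% with the array medians equal. Of the olfactory receptor genes 64.9% were below 0 as deposited and 74.9% after quantile normalization, and 18 of the 30 family genes had a mean at or under the olfactory 95th percentile.

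Cd59a, which shields cells from complement by blocking the membrane attack complex, had the largest difference among the 5 that fell. It measured 7.41, 7.94, 7.15 and 6.53 in knockout replicates 1 to 4, against 8.38, 8.20, 8.25 and 7.78 in control replicates 1 to 4. Replicate 4 was the lowest of both groups, and knockout replicate 2 lay above the lowest control value. The difference was −0.90 (SE 0.25, 1.86-fold, adjusted p = 0.0275). The call ended without knockout replicate 3 (−0.86, adjusted p = 0.0750), control replicate 1 (−0.82, adjusted p = 0.0776), control replicate 2 (−0.88, adjusted p = 0.0617) or control replicate 3 (−0.86, adjusted p = 0.0760). Without knockout replicates 1 and 4 together it was −0.61 (adjusted p = 0.0959), and with array weights −0.63 (adjusted p = 0.0603).

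Its paralog Cd59b averaged 5.19 ± 0.14 in knockout and 5.54 ± 0.06 in control arrays (SD, n = 4 each), a difference of −0.36 (SE 0.075, adjusted p = 0.00712), at a level within the range of olfactory receptor genes. Near-identical stretches of the paralogs may share signal. Ly6i fell by 0.35 (SE 0.097, adjusted p = 0.0306), at a similarly low level. Ly6g6d (−0.24, SE 0.070, adjusted p = 0.0373) and Ly6g6e (−0.23, SE 0.072, adjusted p = 0.0458), like Ly6g6c named for the same histocompatibility region, fell while Ly6g6c rose. The calls of Ly6i, Ly6g6d and Ly6g6e each ended without any of several single arrays, with adjusted p up to 0.0885, 0.114 and 0.137.

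**Figure D3:**
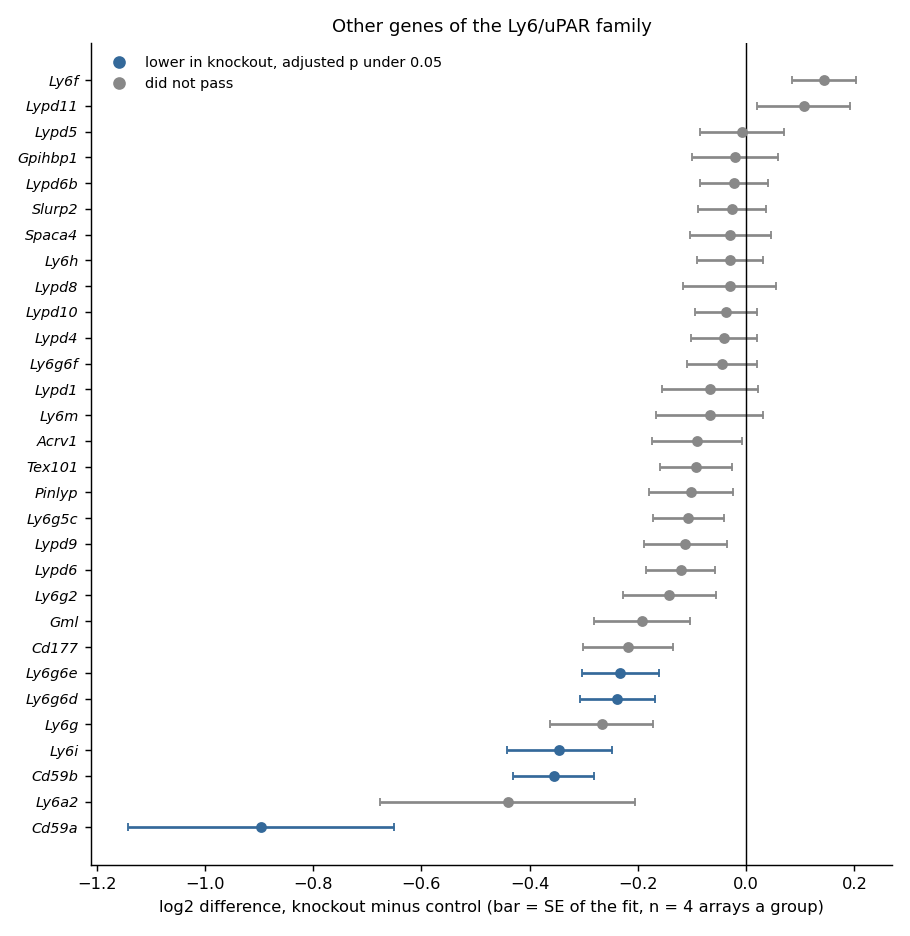
Log2 difference, knockout minus control, with its SE (horizontal axis, n = 4 arrays per group) for the 30 other measured Ly6/uPAR family genes (vertical axis). Blue points passed the test as lower in knockout and grey points did not pass. The points run from −0.90 for Cd59a to 0.14 for Ly6f, with 28 of 30 below 0, against 55.0% of all genes.

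Plaur works within the system that turns plasminogen into plasmin. A list of this system and of Plaur's partners at the cell surface had 24 measured genes. Of these 11 rose, 2 fell and 11 did not pass, with a median of 0.25. Over all genes 8.60% rose and 10.2% fell, with a median of −0.02. Uchl1 (0.45, SE 0.12, adjusted p = 0.0227), a neural marker, is among the 11 but is on this list in error. The 11 also hold Itgam, which is on the list of leukocyte markers too. The list was written with earlier results of these data known. Plau, urokinase, the ligand of Plaur, did not pass and averaged 7.67 ± 0.09 in knockout and 7.47 ± 0.12 in control arrays (0.20, SE 0.073, adjusted p = 0.0941). Plat, the tissue-type activator, rose by 0.42 (SE 0.13, adjusted p = 0.0405). Without knockout replicate 2, 3 or 4 or control replicate 1 or 2 the Plat call ended, with adjusted p of 0.0944, 0.0655, 0.0768, 0.0976 and 0.0933.

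Integrins, which bind Plaur at the membrane, were among the members that rose. Itga3 measured 11.59, 11.41, 11.46 and 11.43 in knockout replicates 1 to 4, against 10.76, 10.57, 10.50 and 10.74 in control replicates 1 to 4 (0.83, SE 0.075, adjusted p = 3.93e-05). Itgb3, named after its value was seen, measured 9.21, 8.85, 8.84 and 8.61 in knockout replicates 1 to 4, against 7.65, 7.60, 8.08 and 8.16 in control replicates 1 to 4 (1.01, SE 0.15, adjusted p = 9.21e-04). In both genes every knockout value was above every control value. Mmp14, a membrane-bound matrix protease, rose by 0.85 (SE 0.11, adjusted p = 2.58e-04).

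The members that fell, Lrp2 and Vldlr, are endocytic receptors of the low-density lipoprotein receptor family, which take up complexes of protease and inhibitor. Lrp1, of the same family and list and named after its value was seen, did not pass (0.28, SE 0.13, adjusted p = 0.190). Lrp2, megalin, measured 7.50, 6.80, 7.02 and 6.68 in knockout replicates 1 to 4, against 9.33, 9.50, 9.17 and 8.98 in control replicates 1 to 4. It fell by 2.24 (SE 0.17, 4.73-fold, adjusted p = 1.53e-05), with all knockout arrays far below the controls. Vldlr, named after its value was seen, fell by 0.79 (SE 0.12, adjusted p = 7.13e-04). Without knockout replicate 3 the number of risen genes on the list was 7, and 4 in a fit adjusted for the mean of mesenchymal markers.

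**Figure D4:**
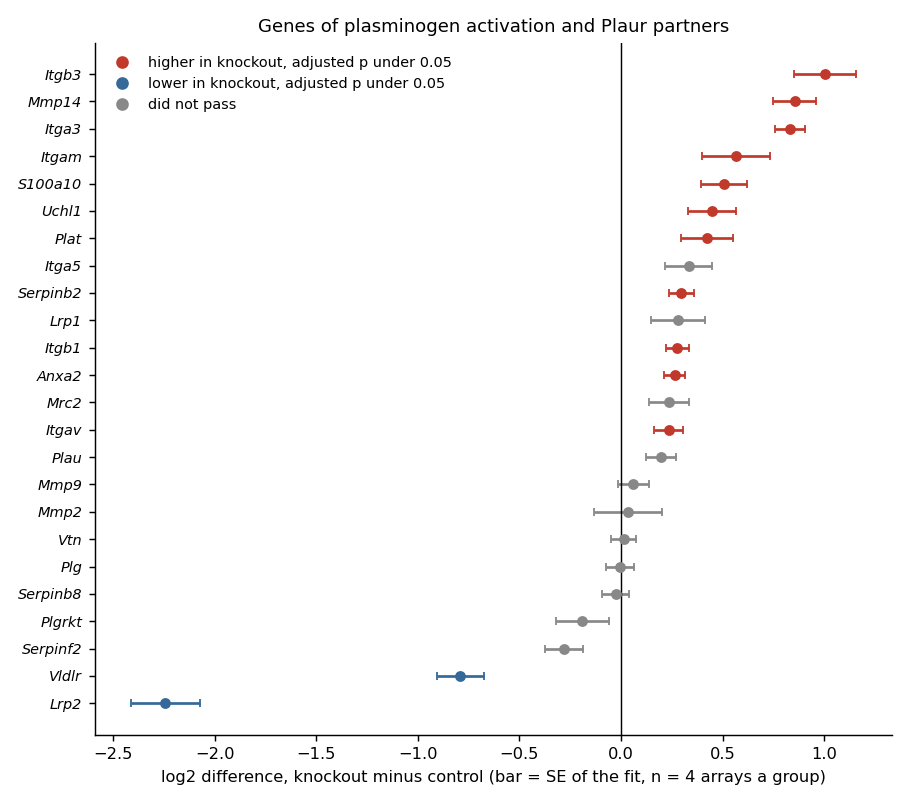
Log2 difference, knockout minus control, with its SE (horizontal axis, n = 4 arrays per group) for the 24 measured genes of plasminogen activation and Plaur's partners (vertical axis). Red points passed as higher and blue points as lower in knockout, and grey points did not pass. Itgb3 lies highest at 1.01 and Lrp2 lowest at −2.24. Uchl1 is plotted although it is on this list in error.

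Nicotinic receptor genes, whose products Lynx1 and Slurp1 modulate, were listed too. Their counts are set beside 8.60% risen and 10.2% fallen over all genes. Of 18 measured genes 1 rose, 0 fell and 17 did not pass in limma's test, and 12 had a mean at or under the olfactory 95th percentile. The gene that rose was Chrnb1, the beta subunit of the muscle-type receptor. It measured 9.36, 9.21, 9.26 and 8.88 in knockout replicates 1 to 4, against 8.80, 8.64, 8.48 and 8.44 in control replicates 1 to 4, without overlap (0.59, SE 0.11, adjusted p = 0.00374). The next smallest p belonged to Tmem35a (−0.16, SE 0.085, adjusted p = 0.249), a chaperone of these receptors, and Chrna10 (0.17, SE 0.10, adjusted p = 0.332).

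Most members need a GPI anchor to reach the surface. Of 31 measured genes that make, attach or remodel the anchor 0 rose, 8 fell and 23 did not pass, with a median of −0.10. Beside this, 8.60% rose and 10.2% fell over all genes. Pigu, a subunit of the transamidase that attaches the anchor, fell by 0.82 (SE 0.092, adjusted p = 1.35e-04). Pgap6, a phospholipase that acts on GPI-anchored proteins, fell by 0.86 (SE 0.11, adjusted p = 2.77e-04), and Pign, an ethanolamine phosphate transferase of the anchor, by 0.50 (SE 0.069, adjusted p = 5.19e-04). The number that rose was 3 with array weights, and the number that fell was 4 after the adjustment for mesenchymal markers.

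A list of 40 other surface proteins, most of them GPI-anchored, went both ways, with 6 risen, 6 fallen, 28 not passing and a median of 0.03. The shares over all genes were 8.60% risen and 10.2% fallen. Ceacam1, an adhesion molecule (−1.06, SE 0.072, adjusted p = 9.72e-06), and Alpl, an alkaline phosphatase (−0.95, SE 0.080, adjusted p = 2.45e-05), fell. Msln, mesothelin, rose (0.75, SE 0.065, adjusted p = 3.15e-05). Ceacam1 of the mouse is held by a transmembrane segment, so it is on this list in error.

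Psca, Ly6d, Lypd3 and Slurp1 are known from stratified epithelia. Of 31 measured genes of such epithelia 13 rose, 1 fell and 17 did not pass, with a median of 0.25. Among all genes 8.60% rose and 10.2% fell. The mean of the list lay between 7.37 and 7.58 in knockout and between 6.97 and 7.18 in control arrays. Krt4, a keratin of mucosal epithelia, measured 7.88, 8.60, 8.03 and 8.20 in knockout replicates 1 to 4, against 6.06, 5.82, 6.01 and 5.75 in control replicates 1 to 4 (2.27, SE 0.14, adjusted p = 7.76e-06). Unlike in Psca, the highest knockout array was replicate 2. Dsc2, a desmosomal cadherin (1.17, SE 0.097, adjusted p = 2.37e-05), and Grhl3, a transcription factor of the epidermal barrier (0.80, SE 0.066, adjusted p = 2.24e-05), rose too. Of the 31 genes 10, with Dsc2, Krt1, Lor and Krtdap among them, had a mean at or under the olfactory 95th percentile of 6.48. The control mean of Krt4, 5.91, was also under it. Among genes above the median level of the table, where Krt4 and Dsc2 are not tested, 8 members of the list rose.

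Markers of other cells were read beside these results, and beside the 8.60% that rose and 10.2% that fell over all genes. Of 17 mesenchymal markers 5 rose and 0 fell, and their mean lay between 8.34 and 8.80 in knockout and between 8.09 and 8.46 in control arrays, with Lum and Twist1 at or under the olfactory 95th percentile. With that mean as a covariate the differences were 2.45 (SE 0.36) for Psca, 0.27 (SE 0.19, adjusted p = 0.482) for Plaur, −0.31 (SE 0.13, adjusted p = 0.199) for Ly6e, −0.19 (SE 0.095, adjusted p = 0.310) for Lynx1 and −0.26 (adjusted p = 0.573) for Cd59a. Of 18 leukocyte markers 1 rose (Itgam) and 1 fell (Lyz2, also on the list of type 2 markers). Their mean lay between 8.69 and 8.99 in knockout and between 8.39 and 9.19 in control arrays. Cd79a and Mpo were at or under the olfactory 95th percentile. With the leukocyte mean as a covariate Plaur differed by 0.61 (SE 0.16, adjusted p = 0.0223) and Ly6e by −0.38 (SE 0.078, adjusted p = 0.00715). Of 16 endothelial markers 7 rose and 0 fell, with means from 9.07 to 9.21 in knockout and from 8.72 to 9.01 in control arrays. Of 9 mesothelial markers 3 rose (Msln, Krt19 and Cdh2) and 0 fell. Their means ran from 8.55 to 8.95 in knockout and from 8.14 to 8.69 in control arrays. Krt19 is also on the epithelial list and Msln on the list of other surface proteins. Wt1, Upk3b, Lrrn4, Muc16, Aldh1a2 and Gpm6a did not pass. Of 12 erythroid markers listed 6 were measured and 0 passed in limma's test, with 4 at or under the olfactory 95th percentile. Of 9 neuroendocrine and neural markers measured 1 rose and 1 fell, with 5 at or under that percentile.

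Markers of the alveolar cell types of the epithelium itself differed as well. Of 14 type 2 markers, genes of the surfactant-producing cells, 0 rose and 13 fell, with a median of −0.93 and array means from 10.97 to 11.50 in knockout and from 12.19 to 12.40 in control arrays. Of 14 type 1 markers, genes of the flat cells of gas exchange, 12 rose and 0 fell, with a median of 0.40 and array means from 11.86 to 12.02 in knockout and from 11.28 to 11.44 in control arrays. Against these counts, 8.60% rose and 10.2% fell over all genes. Both lists were written with these results known. The part of endothelial, mesothelial, type 1 and type 2 cells in the differences of the Ly6/uPAR genes was not tested.

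Promoter sequence was at hand in the RefSeq table (build GRCm38.p6) for 3 of the 10 members, Plaur, Lypd3 and Ly6g6c. They are shown because Plaur and its neighbour on chromosome 7, Lypd3, differ in whether they passed the test, and Ly6g6c is the other gene that rose. The 250 bases upstream of the annotated start lie at chr7:24462233-24462482 for Plaur, chr7:24636320-24636569 for Lypd3 and chr17:35067075-35067324 for Ly6g6c, all on the plus strand. Capitals mark the AP-1 motif TGANTCA.
Plaur: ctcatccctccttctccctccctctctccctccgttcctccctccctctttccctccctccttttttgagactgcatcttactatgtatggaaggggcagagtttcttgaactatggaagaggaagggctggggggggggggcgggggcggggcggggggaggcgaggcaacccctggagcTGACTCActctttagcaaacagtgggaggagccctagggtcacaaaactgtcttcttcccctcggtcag
Lypd3: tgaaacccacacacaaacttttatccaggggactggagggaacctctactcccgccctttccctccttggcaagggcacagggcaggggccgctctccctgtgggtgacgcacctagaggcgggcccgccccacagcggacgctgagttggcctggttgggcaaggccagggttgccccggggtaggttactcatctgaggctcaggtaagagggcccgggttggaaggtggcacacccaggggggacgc
Ly6g6c: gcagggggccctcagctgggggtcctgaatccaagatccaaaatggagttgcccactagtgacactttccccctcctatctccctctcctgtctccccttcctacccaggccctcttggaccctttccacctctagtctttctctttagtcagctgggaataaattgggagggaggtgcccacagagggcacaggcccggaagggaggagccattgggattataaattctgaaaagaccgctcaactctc

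Both strands of these windows were searched for the TEAD core GGAATG, the DNA motif bound by the partners of Yap, and for TGANTCA, which share no overlap in these windows. The GGAATG motif was found in 0 of the 3 windows, against 12.6% of 32851 such windows in the table. The TGANTCA motif was found once, in Plaur, from base −69 to base −63 before the start, against 6.75% of all windows. A match is a description of letters and was not tested as a binding site. The remaining members are Psca, Ly6d, Ly6e, Ly6k, Lypd2, Slurp1 and Lynx1.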

How the data were processed

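RNA from Epcam-selected cells was hybridised to single-colour arrays after biotin labelling, per the labels' protocols. The deposited table holds log2 values for 35556 probe sets in 8 arrays. The log2 scale was read from the range of the values (highest 13.95), and the authors' normalization is not given in the sources used here. Array medians lay between 7.21 and 7.30, and at every rank each array was within 0.175 of the mean, so no scaling was added. Differences are relative to the array as a whole, and the number of arrays limits precision.

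Symbols came from GEO's platform annotation: 21789 probe sets have 1 symbol, 1621 several and 12146 none. Names were updated by gene number through RefSeq (0 changed). For genes with several probe sets the highest mean was used, leaving 19938 genes. The contrast was fitted in R 4.3.3 by limma 3.58.1 (lmFit, then eBayes), two-sided, no covariate, Benjamini-Hochberg over all genes. The fit was tested on simulated data. Named genes are the members, family genes that passed, the extremes of the cluster and the 5 genes most like Psca. The 3 genes of smallest p were named in the plasminogen, nicotinic, anchor, surface protein and stratified lists. Any other gene, among them the cell markers, was named with its values in view. The members and lists were chosen with earlier results of these data known. Alternatives changed scaling, filter, probe set, variance model, array weights, covariates and arrays.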

Additional observations from a re-analysis of the deposited data

Results flagged for a closer look

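In Ly6g6e the value of control replicate 2, 7.83, lay far below the other control arrays, which measured between 8.04 and 8.05. It was the only array that stood this far from the rest of its group among 30 groups of 4 arrays, those of the 10 members and the 5 family genes that fell. Chance flags about 1 in 20 such groups.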

How the results depend on the processing

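Over the 18 alternatives 744 to 2085 genes rose and 933 to 2430 fell, against 1715 and 2031 as reported. The lowest counts, 744 and 933, came with the mean of the mesenchymal markers as a covariate. Among the 9 members other than Psca, Ly6g6c passed as higher under all 18 alternatives, and the Plaur call ended in 6 of the 18. The number of members that fell, 2 as reported, was 1 among genes above the median level, where Lynx1 is not tested. It was 0 with the mesenchymal covariate, and 0 to 2 when any 1 array was left out. The difference of Psca, given with no test, ranged from 2.45 (mesenchymal covariate) to 3.61. Signs turned in 3 members that had not passed. Ly6k was −0.0041 without knockout replicate 4 and −0.023 without knockout replicates 1 and 4 together (at most 0.099 without any 1 array), Lypd2 was −0.15 with the mesenchymal covariate and −0.0025 without knockout replicate 4 (at most 0.27 without any 1 array), and Slurp1 was −0.042 and −0.021 under the same settings (at most 0.15 without any 1 array). Lypd3 passed without knockout replicates 1 and 4 together (0.29, adjusted p = 0.0453). The number of other family genes that fell was between 1 and 7, and 2 among genes above the median level. Genes that rose on the plasminogen list, which holds Uchl1, numbered 4 to 11. Anchor genes that rose numbered 0 to 3 and those that fell 4 to 9. Stratified epithelium genes that rose numbered 8 to 14 and those that fell 0 to 2. The cause of these shifts was not tested. The replicate numbers are shared by the groups, but same-numbered arrays did not deviate together (r between −0.0818 and 0.0951). With a replicate block 1595 genes rose and 1899 fell. Of the members other than Psca, Ly6g6c and Plaur rose and 2 fell, and 3 other family genes fell. Low signal limits Ly6d and 18 of the 30 other family genes, whose levels lie in the range of olfactory receptor genes. It also limits 12 of the 18 nicotinic receptor genes and 10 of the 31 stratified epithelium genes.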
